A study of Mus musculus with 12 samples.

Results

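The genes described here are those that copy DNA in S phase and those that divide the chromosomes in mitosis, measured in granulosa cells, which line the ovarian follicle of the mouse and nurse its oocyte. They were 44 listed genes, of which 43 had a probe set annotated to that gene alone and 1, Ccnb1, was not analysed here. The 43 genes comprise 21 of DNA replication and 22 of mitosis, out of 18193 genes with such a probe set in the whole series. Where a gene had several probe sets, the one with the largest standard deviation over the 12 arrays was taken. The group labels did not enter this choice, but differences between groups add to that deviation. All 43 passed the filter on that deviation and were among the 12500 genes tested.

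Cells came from 4 groups of 3 arrays each: Inha-/- after pregnant mare serum gonadotropin (PMSG) and human chorionic gonadotropin (hCG), wild type after PMSG and hCG, Inha-/- after PMSG, and wild type after PMSG. All mice were of the strain C57BL/6J;129S5/SvEvBrd and were 21 days old when they received 5 IU of PMSG, which acts like follicle-stimulating hormone, for 44 to 46 h. The hCG groups then had 5 IU of hCG, which acts like luteinizing hormone, for 6 h, and granulosa cells were obtained from antral follicles by puncture. Inha encodes the alpha subunit of the inhibins, hormones of the gonads that oppose activins. The labels call the samples of a group independent but do not say whether cells of several mice were pooled.

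Cell division rests on waves of transcription. In late G1 and S phase, E2F transcription factors act on genes for origin licensing, the replicative helicase, the DNA polymerases and nucleotide supply. In G2 and mitosis, genes of the spindle, the kinetochore and their kinases are switched on through promoter letters called the cell cycle genes homology region (CHR), often beside CCAAT boxes. Granulosa cells divide rapidly while a follicle grows under follicle-stimulating hormone, and leave the cell cycle after the ovulatory surge of luteinizing hormone as they turn into luteal cells.

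The deposited log2 values had been centred, probe set by probe set, on the median of the 12 arrays. A value of 0 is that median, and no value gives a level. The knockout was visible on every array: Inha had centred log2 values of -7.35, -7.35 and -7.40 in Inha-/- cells after hCG, 5.52, 5.395 and 5.42 in wild-type cells after hCG, -7.38, -5.395 and -7.25 in Inha-/- cells after PMSG, and 5.62, 5.62 and 5.87 in wild-type cells after PMSG. Replicate arrays correlated across genes, which are not independent replicates, with r between 0.407 and 0.731 in Inha-/- after hCG, 0.693 and 0.830 in wild type after hCG, 0.210 and 0.374 in Inha-/- after PMSG, and 0.524 and 0.756 in wild type after PMSG. The Inha-/- PMSG arrays were thus the least alike, and their replicate 3 had the lowest array weight (0.291), an estimate by limma of how closely an array follows its group. The highest weight was that of wild-type PMSG replicate 2 (5.16). Of 8 granulosa markers 7 were measured, and a centred value cannot show whether a marker was above background. The number of arrays limits the precision. In RNA of a whole cell sample, fewer dividing cells and less RNA of these genes per cell cannot be told apart.

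Promoter letters of the genes were read from RefSeq windows of the build GRCm38.p6, running from 250 bases before to 50 bases after the start of the gene. A window was found for 36 of the 43 genes, 18 of each kind. The 3 replication and 3 mitosis genes with the largest called increases in Inha-/- cells after hCG that have a window are shown. Capitals mark the E2F letters (TTTCGCGC, TTTGGCGC, TTTCCCGC or TTTGCCGC), the CHR letters (TTTGAA or TTCGAA) and CCAAT, each on either strand. All 6 genes lie on the minus strand, and each window is written 5′ to 3′ along the gene.
Mcm3, chr1:20820263-20820562: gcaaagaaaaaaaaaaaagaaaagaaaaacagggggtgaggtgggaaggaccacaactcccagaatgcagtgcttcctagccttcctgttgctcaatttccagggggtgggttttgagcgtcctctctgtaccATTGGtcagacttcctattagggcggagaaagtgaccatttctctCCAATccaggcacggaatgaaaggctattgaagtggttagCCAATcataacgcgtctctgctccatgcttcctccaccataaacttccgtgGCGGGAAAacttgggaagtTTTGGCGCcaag
Pola1, chrX:93632106-93632405: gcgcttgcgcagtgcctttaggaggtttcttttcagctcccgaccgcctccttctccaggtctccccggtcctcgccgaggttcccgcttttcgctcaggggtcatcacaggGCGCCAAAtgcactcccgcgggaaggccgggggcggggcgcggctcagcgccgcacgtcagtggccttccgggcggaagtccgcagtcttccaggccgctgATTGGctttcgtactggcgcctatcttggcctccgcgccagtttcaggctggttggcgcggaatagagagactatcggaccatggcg
Mcm6, chr1:128359656-128359955: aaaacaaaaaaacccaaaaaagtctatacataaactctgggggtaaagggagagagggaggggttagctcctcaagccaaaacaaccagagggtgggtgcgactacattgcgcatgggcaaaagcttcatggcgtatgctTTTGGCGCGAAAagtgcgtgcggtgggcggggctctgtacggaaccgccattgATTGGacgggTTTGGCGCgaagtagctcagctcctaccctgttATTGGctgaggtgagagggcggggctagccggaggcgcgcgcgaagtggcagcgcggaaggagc
Bub1, chr2:127831810-127832109: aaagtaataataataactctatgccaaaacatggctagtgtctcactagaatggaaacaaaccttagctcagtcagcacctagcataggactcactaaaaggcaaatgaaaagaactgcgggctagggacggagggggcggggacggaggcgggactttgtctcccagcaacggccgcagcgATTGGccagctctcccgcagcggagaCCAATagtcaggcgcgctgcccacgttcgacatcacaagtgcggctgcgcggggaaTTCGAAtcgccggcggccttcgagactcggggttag
Mki67, chr7:135716330-135716629: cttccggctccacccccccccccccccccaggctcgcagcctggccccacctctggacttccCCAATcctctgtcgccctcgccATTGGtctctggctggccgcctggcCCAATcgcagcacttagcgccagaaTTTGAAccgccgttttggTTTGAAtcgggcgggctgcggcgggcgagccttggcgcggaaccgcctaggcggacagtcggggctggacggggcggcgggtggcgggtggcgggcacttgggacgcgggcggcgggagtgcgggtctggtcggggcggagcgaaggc
Ccnb2, chr9:70421505-70421804: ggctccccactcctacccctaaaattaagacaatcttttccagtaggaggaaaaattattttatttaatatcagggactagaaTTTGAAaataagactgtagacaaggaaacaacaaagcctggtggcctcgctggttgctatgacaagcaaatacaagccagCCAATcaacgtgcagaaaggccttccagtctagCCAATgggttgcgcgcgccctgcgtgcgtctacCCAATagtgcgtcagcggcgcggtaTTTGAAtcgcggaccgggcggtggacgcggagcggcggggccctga

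The 3 replication windows shown hold E2F letters and the 3 mitosis windows shown hold CHR letters. Mcm3 has 2 matches to the E2F letters, Pola1 1 and Mcm6 3, of which 2 overlap on opposite strands, and none of the 3 has the CHR letters. Bub1 has 1 match to the CHR letters, Mki67 2 and Ccnb2 2, and none of them has the E2F letters. Over all members with a window, E2F letters stood in 9 of 18 replication genes (50%) and in 1 of 18 mitosis genes (5.56%), the exception being Cdk1, against 4.78% of the 10084 tested genes with a window. CHR letters stood in 3 of 18 replication genes (16.7%) and 14 of 18 mitosis genes (77.8%), against 16.4% of tested genes. CCAAT stood in 72.2% of the replication and 77.8% of the mitosis windows, against 43% of tested genes. Mcm7, Rfc3 and Cdk1 hold both the E2F and the CHR letters. A match is a run of letters and not a measured binding site.

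**Figure D1:**
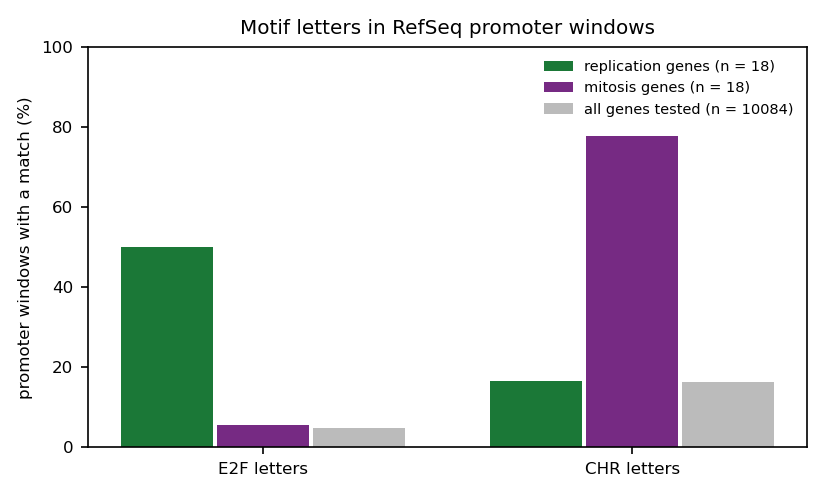
Share of RefSeq promoter windows (%) that hold the E2F letters or the CHR letters, for 18 replication genes, 18 mitosis genes and the 10084 tested genes with a window. The E2F bar is tallest for replication genes (50%) and the CHR bar for mitosis genes (77.8%).

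The comparison of Inha-/- with wild type after hCG asks how far the loss of inhibin alpha alters these genes once the ovulatory signal has been given. Of the 43 genes 22 were higher in Inha-/- cells and 0 were lower in limma at an adjusted p under 0.05, where 21.4% of all 12500 genes were called (12.5% higher and 8.83% lower). Replication genes made up 14 of these calls (of 21) and mitosis genes 8 (of 22). Every one of the 43 genes had a positive log2 difference, with a median of 1.14 for replication and 0.61 for mitosis genes, against 0.035 over all genes tested. A difference of at least 2-fold was seen for 15 of 21 replication and 5 of 22 mitosis genes. At an unadjusted p under 0.05, 29 were higher and 0 lower. All 3 Inha-/- arrays lay above all 3 wild-type arrays for 36 genes, 18 of each kind, where this held for 22.5% of all genes.

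Of the called origin and helicase genes, Mcm3, Mcm6 and Cdc6 were furthest apart. Mcm3, a subunit of the ring-shaped MCM helicase that unwinds DNA, had centred log2 values of 0.27, 0.075 and 0.57 in Inha-/- cells after hCG, against -1.65, -1.97 and -2.67 in wild-type cells after hCG. The arrays did not overlap, and the wild-type values were the lowest of the whole series (2.41 ± 0.47, SE, adjusted p = 0.00388 in limma). The other 4 probe sets of Mcm3 gave 0.55 to 2.05. Mcm6, another subunit of the helicase, had 0.67, -0.019 and 0.41 in Inha-/- cells, against -0.97, -0.84 and -2.0 in wild-type cells (1.62 ± 0.32, SE, adjusted p = 0.00459 in limma). Its arrays did not overlap either, with wild-type replicate 3 well below the other two. 1 further probe set of Mcm6 gave 1.36, while the last, which hardly varied over the arrays, gave 0.022. Cdc6, which loads the helicase onto origins, was tight among Inha-/- arrays and less so among wild-type arrays, with 0.71, 0.58 and 0.66 in Inha-/- cells, against -1.10, -0.56 and -1.11 in wild-type cells (1.58 ± 0.26, SE, adjusted p = 0.00143 in limma).

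The other called helicase and origin genes were Mcm2 (1.52), Mcm4 (1.39), the licensing factor Cdt1 (1.25), Mcm7 (1.14), Mcm5 (1.10), the helicase activator Mcm10 (1.06) and Gins2 (1.05), a subunit of the GINS complex that joins the helicase at the fork. All 6 subunits of the MCM2-7 ring were therefore called. Orc1, the large subunit of the origin recognition complex, differed by 2.32 ± 0.77 (SE) without passing (adjusted p = 0.0535 in limma). Its Inha-/- arrays had 0.23, 1.18 and 1.12, against -1.54, -1.27 and -1.62 on the wild-type arrays, with no overlap, and its other probe set gave 0.25. Gins1, a second GINS subunit, was among the 2 replication genes of smallest change. It had 0.48, 0.31 and -0.10 in Inha-/- cells, against -0.28, -0.0038 and -0.21 in wild-type cells, a difference of 0.39 ± 0.26 (SE, adjusted p = 0.331 in limma) that did not exceed the spread between replicates.

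Of the polymerase, clamp and nucleotide genes, Pola1, the catalytic subunit of DNA polymerase alpha, had the smallest adjusted p of the 43. It had -0.038, 0.31 and 0.67 in Inha-/- cells after hCG, against -1.32, -1.14 and -1.69 in wild-type cells (1.70 ± 0.23, SE, adjusted p = 0.000522 in limma). The wild-type arrays were far below the Inha-/- ones, and the second probe set of Pola1, which hardly varied, gave -0.0025. The thymidine kinase gene Tk1 (1.43), the primase gene Prim1 (1.22) and the clamp loader gene Rfc4 (1.08) were called too. Not called were the ribonucleotide reductase gene Rrm1 (0.89), the thymidylate synthase gene Tyms (0.80), the clamp loader gene Rfc3 (0.65) and Pcna (0.54), the sliding clamp. Rrm2, the regulated subunit of ribonucleotide reductase, had the smallest change of the replication genes. It had -0.0098, 0.13 and 0.024 in Inha-/- cells, against 0.0066, -0.42 and -0.18 in wild-type cells, groups that overlapped (0.24 ± 0.29, SE, adjusted p = 0.630 in limma).

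Among the mitosis genes Bub1, a kinase of the spindle checkpoint, differed most. It had 0.75, 0.35 and 0.80 in Inha-/- cells after hCG, against -1.31, -1.01 and -2.70 in wild-type cells (2.30 ± 0.42, SE, adjusted p = 0.00284 in limma), and its other probe set gave 1.12. Wild-type replicate 3 was the lowest of the 12 arrays for this gene. Mki67, which codes for the proliferation marker Ki-67 that coats mitotic chromosomes, had 0.43, -0.075 and 0.17 in Inha-/- cells, against -1.05, -1.03 and -1.62 in wild-type cells (1.41 ± 0.23, SE, adjusted p = 0.00126 in limma). Ccnb2, a B-type cyclin that drives entry into mitosis, had -0.24, -0.066 and -0.082 in Inha-/- cells, against -1.63, -1.01 and -1.81 in wild-type cells (1.35 ± 0.22, SE, adjusted p = 0.00146 in limma). For Mki67 and Ccnb2 the groups stood well apart, with the Inha-/- arrays near the median of the series and the wild-type arrays far below it.

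Aurkb, the kinase of the chromosomal passenger complex, had -0.0024, 0.031 and 0.0024 in Inha-/- cells, against -0.67, -0.95 and -1.63 in wild-type cells (1.09 ± 0.30, SE, adjusted p = 0.0239 in limma), and 1.01 on its other probe set. It was no longer called without wild-type replicate 3 (0.82) or without any 1 of the Inha-/- replicates (1.08 to 1.10). The other called mitosis genes were the checkpoint gene Bub1b (1.09), the cyclin gene Ccna2 (0.92), the kinase gene Plk1 (0.84) and Birc5 (0.75), which encodes the passenger protein survivin. Several kinetochore and spindle genes were not called: Cenpe had 0.70, Prc1 0.65, Tpx2 0.57, Kif11 0.57, Kif20a 0.54, Cenpa 0.50 and Ndc80 0.26. Nor were the checkpoint genes Ttk (0.50) and Mad2l1 (0.39), Cdk1 (0.48), the activator of the anaphase-promoting complex Cdc20 (0.43) or the topoisomerase gene Top2a (0.76).

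The mitosis genes of smallest change were Nusap1 and Aurka. Nusap1, a spindle-associated protein, had -0.28, -0.23 and -0.065 in Inha-/- cells, against -0.33, -0.076 and -0.21 in wild-type cells (0.017 ± 0.24, SE, adjusted p = 0.996 in limma). Aurka, a centrosome kinase, had -0.30, 0.20 and 0.17 in Inha-/- cells, against -0.10, -0.22 and -0.15 in wild-type cells (0.18 ± 0.21, SE, adjusted p = 0.610 in limma). The groups overlapped for both genes.

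**Figure D2:**
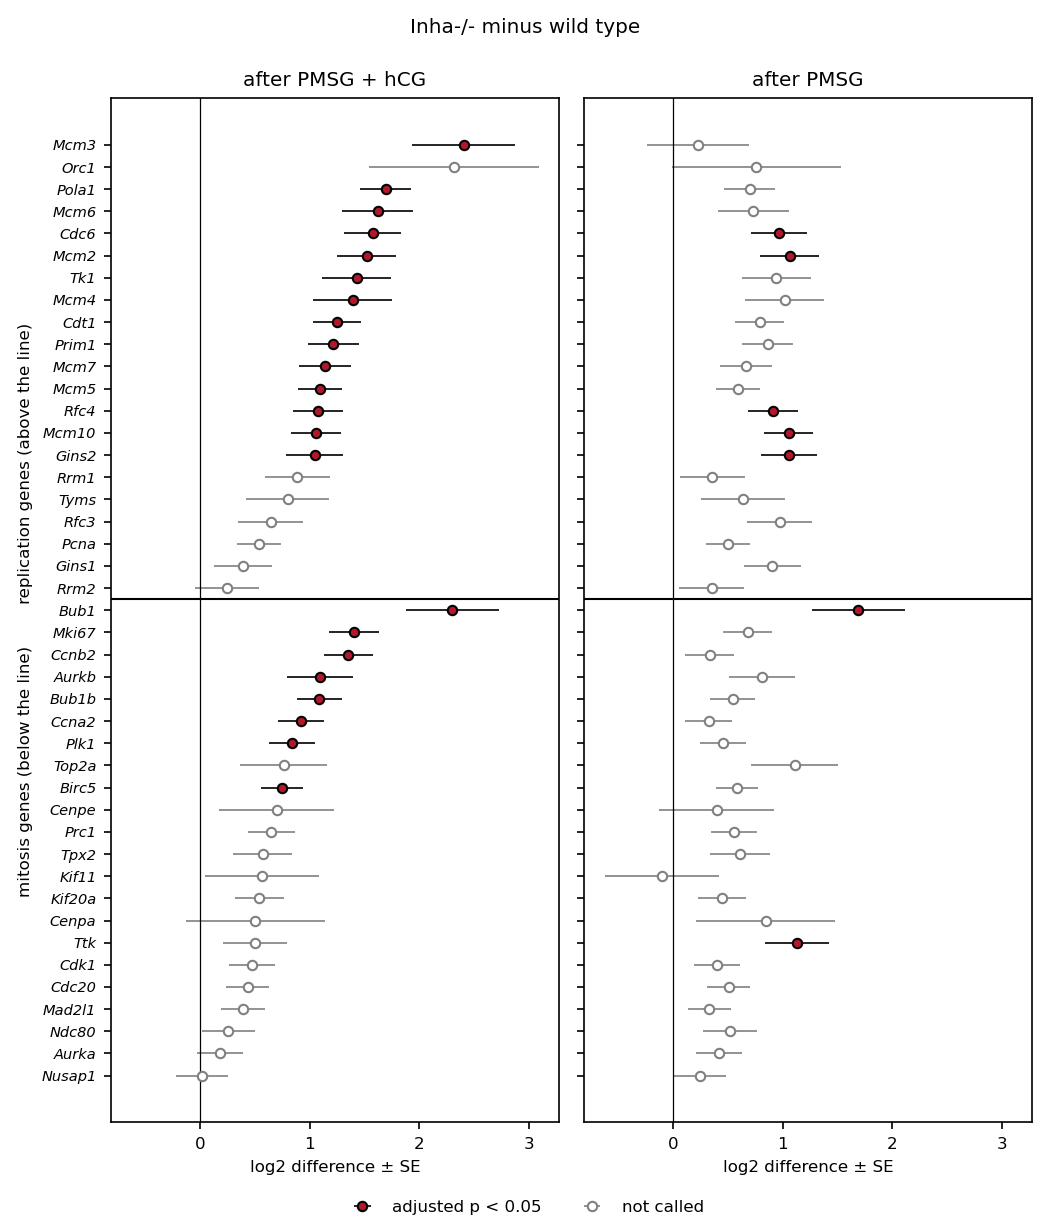
Log2 difference (Inha-/- minus wild type) of the 43 genes after PMSG and hCG (left) and after PMSG (right); points are estimates of the limma fit over 12 arrays, bars are ± SE, and filled points passed an adjusted p of 0.05. All 43 points lie above 0 after hCG and 42 after PMSG, with 22 and 7 filled.

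Before hCG the genotypes already differed in the same direction. After PMSG 7 of the 43 genes were higher in Inha-/- cells and 0 lower in limma, where 6.19% of all genes were called (2.98% higher and 3.21% lower). They were 5 replication genes, Mcm2 (1.07), Gins2 (1.06), Mcm10 (1.05), Cdc6 (0.97) and Rfc4 (0.91), and 2 spindle checkpoint kinases, Bub1 (1.69) and Ttk (1.13). The difference was positive for 42 genes, the exception being the spindle motor Kif11 (-0.11), with a median of 0.79 for replication and 0.51 for mitosis genes, against 0.020 over all genes tested. On its other probe sets Kif11 gave 0.19 and 0.28. At an unadjusted p under 0.05, 26 were higher and 0 lower. All Inha-/- arrays lay above all wild-type arrays for 28 genes, 16 of replication and 12 of mitosis, where this held for 14.3% of all genes. Bub1, Cdc6, Gins2, Mcm10, Mcm2 and Rfc4 were called both after PMSG and after hCG.

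Mcm2 had 0.74, 0.42 and 0.42 in Inha-/- cells after PMSG, against -1.13, -0.093 and -0.40 in wild-type cells (adjusted p = 0.0399 in limma). Gins2 had 0.71, 0.18 and 0.86 in Inha-/- cells, against -0.86, -0.18 and -0.39 in wild-type cells (adjusted p = 0.0330 in limma). For both genes wild-type replicate 1 was the lowest of the 6 arrays and the groups did not overlap. Bub1 had 1.60, 0.65 and 0.51 in Inha-/- cells, against -0.96, -0.99 and -0.35 in wild-type cells (adjusted p = 0.0386 in limma), with 0.50 on its other probe set. Ttk, called here and not after hCG, had 0.24, 1.32 and 0.82 in Inha-/- cells, against -0.33, -0.24 and -0.44 in wild-type cells (adjusted p = 0.0433 in limma), with 0.67 on its other probe set. The wild-type arrays of Ttk were close together and the Inha-/- arrays spread widely, again without overlap.

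The PMSG calls lay close to the threshold and most were lost in the fits that left out 1 PMSG array, while the median difference stayed positive. Over these fits the median difference was 0.62 to 0.91 for replication and 0.33 to 0.61 for mitosis genes. Without wild-type PMSG replicate 1 or replicate 3, limma called 0 of the 43, with 14 and 23 at an unadjusted p under 0.05, and without Inha-/- PMSG replicates 1, 2 or 3 it called 3, 3 and 2. It called 4 without wild-type PMSG replicate 2 or wild-type hCG replicate 1, and 2 and 1 without Inha-/- hCG replicates 2 and 3. Leaving out an hCG array leaves the PMSG difference of a gene as it was and changes only the shared estimate of the spread. Without wild-type PMSG replicate 3, Mcm2 differed by 1.13, Gins2 by 1.10 and Bub1 by 1.90. A number in the array names, which the labels do not explain, joins the first replicates of the 2 genotypes after PMSG, and another joins the second replicates. With this number as a random block limma called 10 of the 43. Within these pairs the median difference was 1.34 and 0.43 for replication genes (20 of 21 higher in Inha-/- each time) and 0.89 and 0.28 for mitosis genes (21 and 20 of 22 higher). A further array name number joins replicates 2 and 3 of wild type after hCG, whose serial numbers are consecutive. Whether these 2 arrays are as separate as other replicates was not tested. Both enter the 22 calls between genotypes after hCG and the 11 in the wild-type response. With the array name number as a random block these counts were 22 and 7. Inha-/- PMSG replicate 3 departed from replicates 1 and 2 for several genes. Mcm3 had 0.79, 0.39 and -1.20 on these arrays, Orc1 1.33, 1.32 and -1.90, Kif11 1.41, 1.03 and -0.84, and the kinetochore motor gene Cenpe 1.42, 1.37 and -1.02. None of these 4 genes was called after PMSG.

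**Figure D3:**
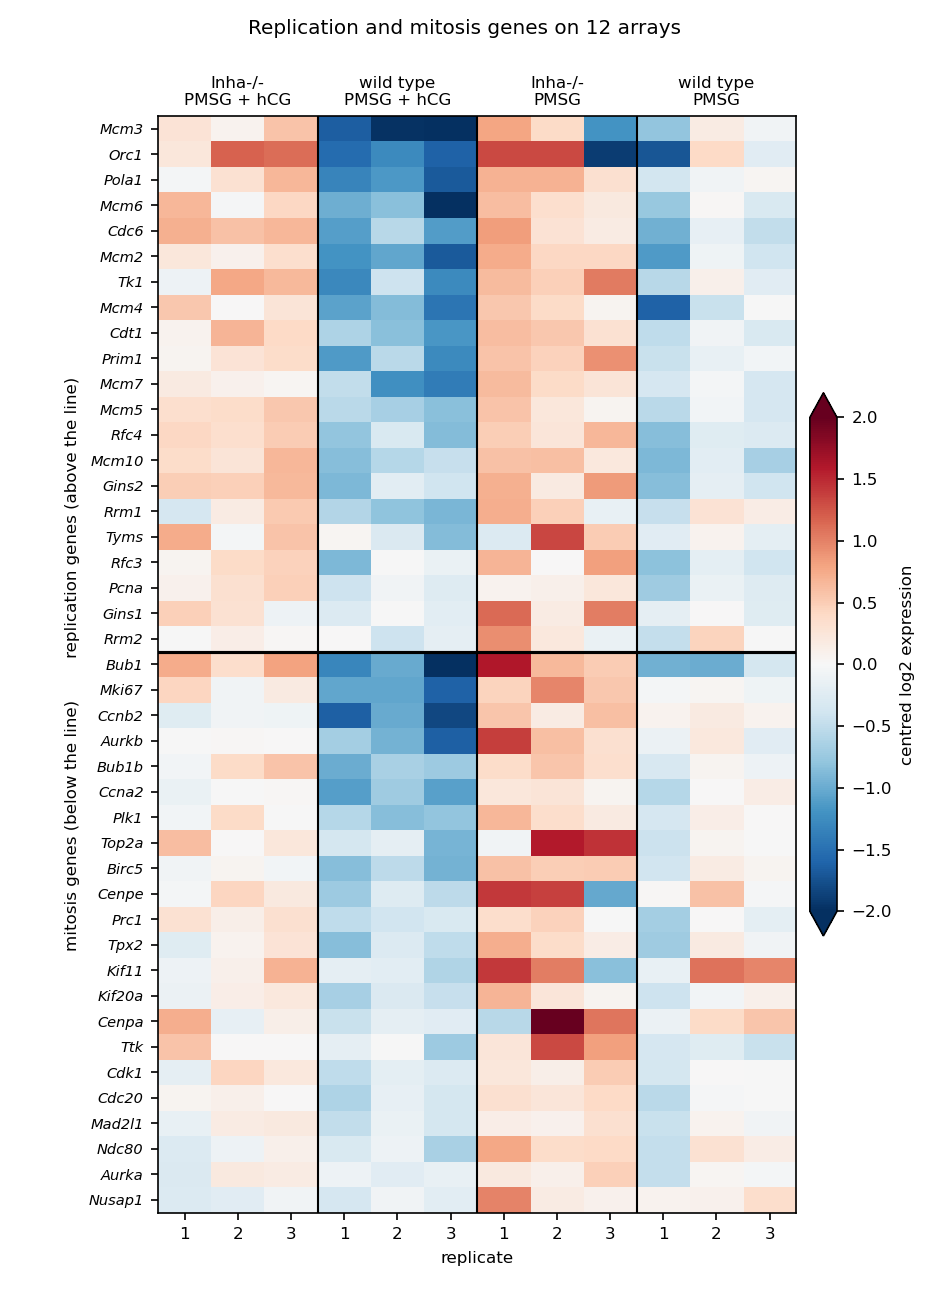
Centred log2 expression of the 21 replication genes (above the line) and 22 mitosis genes (below the line) on each of the 12 arrays, with groups from left to right Inha-/- after hCG, wild type after hCG, Inha-/- after PMSG and wild type after PMSG; colours stop at -2 and 2. Mcm3 is at its lowest on the 3 wild-type hCG arrays (-1.65 to -2.67), and replicate 3 of Inha-/- after PMSG is blue for Mcm3, Orc1, Kif11 and Cenpe.

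With hCG in wild-type cells most of the 43 genes had a negative change, and fewer of them were called. Of the 43 genes 11 were lower 6 h after hCG than after PMSG alone and 0 were higher in limma, where 22.1% of all genes were called (9.87% higher and 12.2% lower). They were 4 replication genes, Mcm3 (-1.87), Pola1 (-1.25), Mcm7 (-0.80) and Prim1 (-0.77), and 7 mitosis genes, Ccnb2 (-1.59), Mki67 (-1.20), Aurkb (-1.04), Ccna2 (-0.82), Birc5 (-0.72), Plk1 (-0.67) and Bub1b (-0.66). The median change was -0.44 for replication and -0.47 for mitosis genes, against -0.063 over all genes tested, and 39 of 43 were negative. At an unadjusted p under 0.05, 16 were lower and 0 higher. All hCG arrays lay below all PMSG arrays for 19 genes, 7 of replication and 12 of mitosis, where this held for 24.5% of all genes.

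The 2 largest decreases of each kind had no overlap between hCG and PMSG arrays. Mcm3 had -1.65, -1.97 and -2.67 in wild-type cells after hCG, against -0.79, 0.16 and -0.075 after PMSG (adjusted p = 0.0149 in limma), and Pola1 had -1.32, -1.14 and -1.69 after hCG, against -0.37, -0.071 and 0.038 after PMSG (adjusted p = 0.00359 in limma). Of the other probe sets of Mcm3, 3 gave -0.97 to -1.32 and 1 gave 0.0016. Ccnb2 had -1.63, -1.01 and -1.81 after hCG, against 0.075, 0.17 and 0.066 after PMSG (adjusted p = 0.000591 in limma). Mki67 had -1.05, -1.03 and -1.62 after hCG, against -0.032, 0.032 and -0.083 after PMSG (adjusted p = 0.00360 in limma). The PMSG arrays of these 2 mitosis genes lay within a narrow band. Pcna (0.12), Rfc3 (0.12), Ttk (0.030) and Aurka (0.00090) were the 4 genes with a positive change, none of them called. The calls in wild type numbered 3 without PMSG replicate 2 or hCG replicate 3, 4 without PMSG replicate 3 and 7 without hCG replicate 1, and Pola1, Ccnb2 and Mki67 were among them each time.

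In Inha-/- cells limma called none of the 43 genes after hCG against PMSG, where 2.67% of all genes were called (2.45% higher and 0.224% lower). At an unadjusted p under 0.05, 5 mitosis genes were lower (Birc5, Ccnb2, Nusap1, Aurkb and Ndc80) and 0 of any kind higher. The smallest adjusted p was that of Birc5 (-0.55 ± 0.19, SE, adjusted p = 0.246 in limma), followed by Ccnb2 (-0.57) and Nusap1 (-0.60). The sign was negative for all 22 mitosis genes and for 16 of 21 replication genes, with a median of -0.34 and of -0.098, against -0.029 over all genes tested. All hCG arrays lay below all PMSG arrays for 11 genes, 3 of replication and 8 of mitosis, where this held for 7.6% of all genes, and the opposite order, which 7.98% of all genes showed, was seen for 0. Orc1 (0.59), Mcm3 (0.31), Cdc6 (0.22), Pcna (0.16) and Mcm5 (0.14) were the genes with a positive change, none called. Without Inha-/- PMSG replicate 1 limma called 1 gene, Top2a, and without replicate 3 also 1, Cenpe, both lower.

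**Figure D4:**
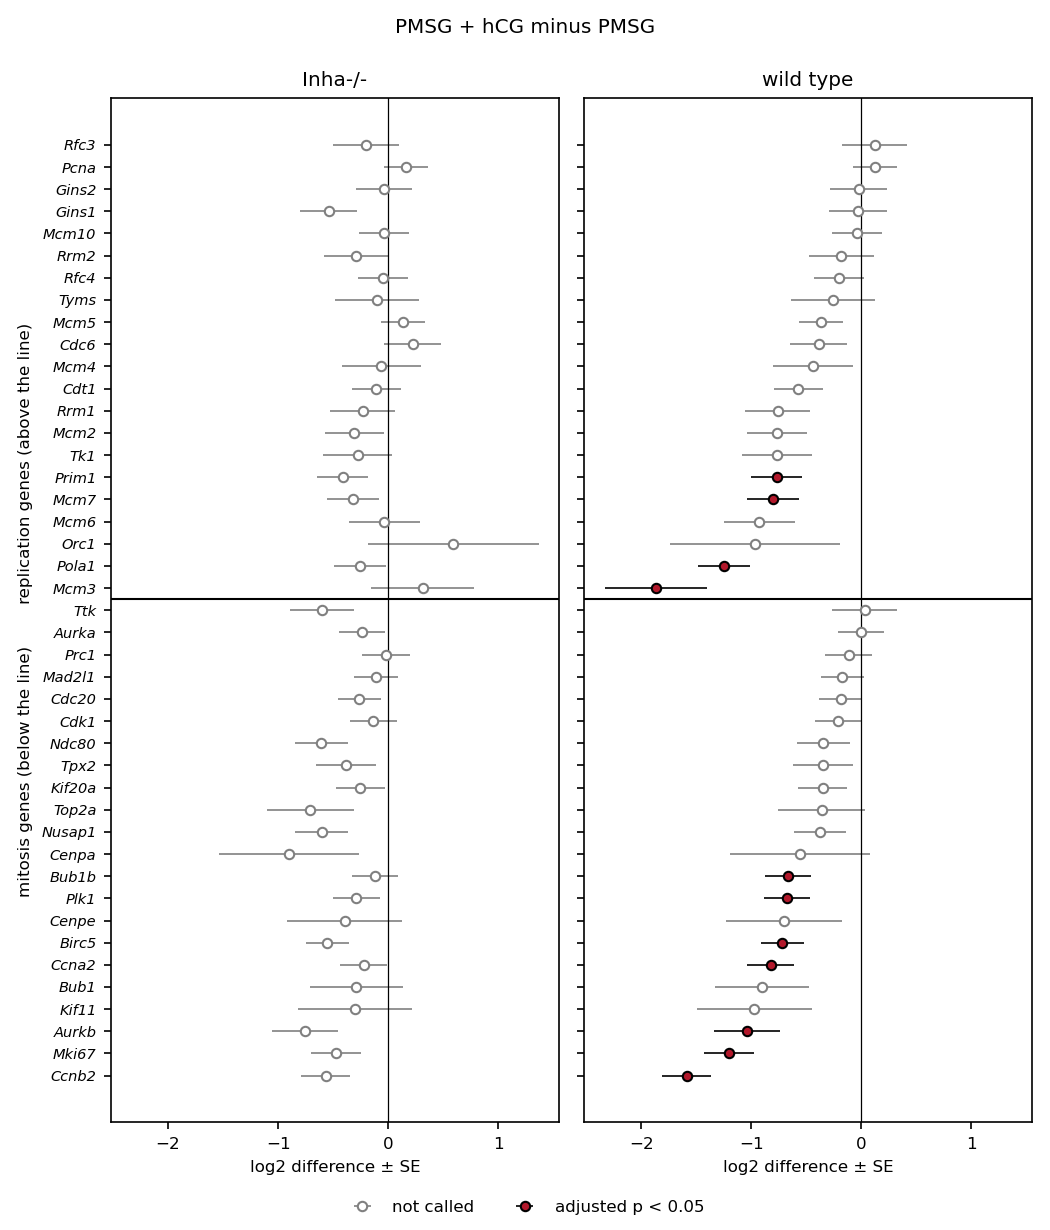
Log2 difference (PMSG and hCG minus PMSG) of the 43 genes in Inha-/- cells (left) and wild-type cells (right); points are estimates of the limma fit, bars are ± SE, and filled points passed an adjusted p of 0.05. No point is filled in Inha-/- cells and 11 are filled in wild-type cells, all below 0.

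The 11 genes lower with hCG in wild type were all among the 22 higher in Inha-/- after hCG, but both comparisons use the same wild-type hCG arrays. The difference between the responses was therefore tested as an interaction, and limma called none of the 43, where 2.09% of all genes were called (0.584% positive and 1.5% negative). At an unadjusted p under 0.05, 4 were positive and 0 negative. The smallest adjusted p in limma were those of Mcm3 (2.18 ± 0.66, SE, adjusted p = 0.136), Ccnb2 (1.02 ± 0.32, SE, adjusted p = 0.144) and Pola1 (0.996 ± 0.33, SE, adjusted p = 0.176). The chosen probe set of Mcm3 gave the largest interaction of its 5. Its genotype difference was the smallest after PMSG (0.23, others 0.44 to 0.89) and the largest after hCG (2.41, others 0.55 to 2.05). The median was 0.46 for replication and 0.095 for mitosis genes, against 0.082 over all genes tested. A weaker response in Inha-/- than in wild type was thus not shown for any single gene in this fit. With array weights limma called 2, Mcm3 and Ccnb2, and without wild-type hCG replicate 2 it called 1, Ccnb2. In the weighted fit wild-type PMSG replicate 2 weighed 5.16, against 0.63 and 1.63 for replicates 1 and 3 of its group.

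Replication and mitosis genes were next set side by side within each array. The median of the replication genes was 0.23, 0.31 and 0.50 on the Inha-/- hCG arrays, against -0.90, -0.57 and -1.11 on the wild-type hCG arrays. After PMSG it was 0.63, 0.38 and 0.27 in Inha-/- cells, against -0.71, -0.071 and -0.26 in wild-type cells. Replication medians of the 2 Inha-/- groups thus overlapped, and the wild-type hCG arrays were lowest but for the overlap of replicate 2 with wild-type PMSG replicate 1.

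The median of the mitosis genes was -0.069, 0.081 and 0.17 on the Inha-/- hCG arrays, against -0.59, -0.26 and -0.63 on the wild-type hCG arrays. After PMSG it was 0.50, 0.42 and 0.36 in Inha-/- cells, against -0.37, 0.061 and -0.0082 in wild-type cells. The mitosis medians of all 3 Inha-/- hCG arrays lay below those of all 3 Inha-/- PMSG arrays, which was not so for replication. Replication minus mitosis came to 0.30, 0.23 and 0.33 on the Inha-/- hCG arrays, -0.31, -0.30 and -0.49 on the wild-type hCG arrays, 0.13, -0.032 and -0.098 on the Inha-/- PMSG arrays, and -0.34, -0.13 and -0.25 on the wild-type PMSG arrays. After hCG the sign was thus positive on every Inha-/- array and negative on every wild-type array. These medians describe chosen genes, and the difference between replication and mitosis was not tested.

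**Figure D5:**
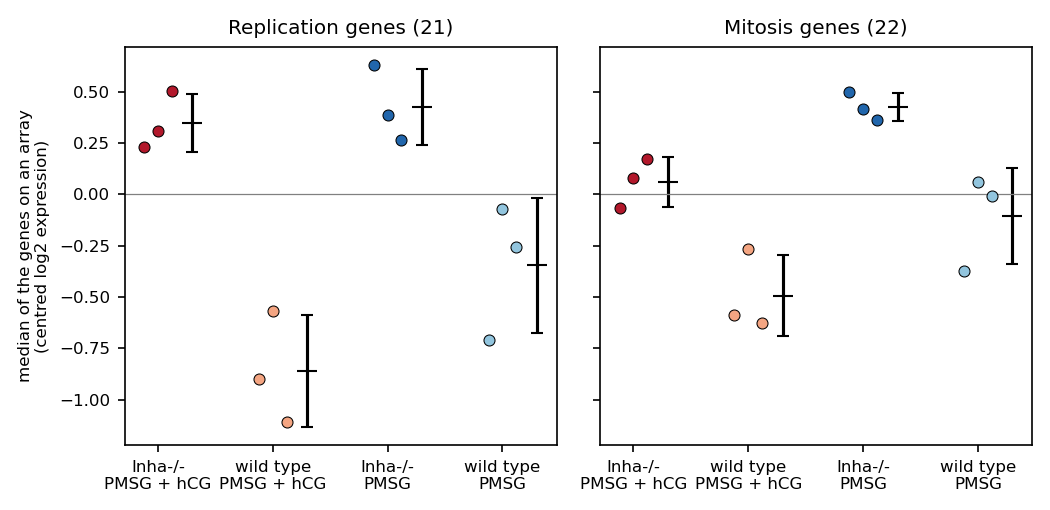
Median centred log2 expression of the 21 replication genes (left) and 22 mitosis genes (right) on each array; points are arrays and bars the mean ± SD of 3 arrays. The Inha-/- hCG arrays stand at 0.23 to 0.50 for replication and -0.069 to 0.17 for mitosis, above the wild-type hCG arrays in both panels.

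The genes were also sorted by promoter letters rather than by function. The 10 with E2F letters had a median difference between genotypes after hCG of 1.41 (7 called). The 17 with CHR letters had 0.65 (7 called) and the 12 with neither 0.77 (5 called). Mcm7, Rfc3 and Cdk1 hold both and count in the E2F and the CHR group alike (median 0.65, 1 called). Of all genes tested, 12.5% were called higher in this comparison. After PMSG the medians were 0.72 for E2F letters, 0.56 for CHR letters and 0.54 for neither. In the response to hCG the genes with E2F letters had a median of -0.072 in Inha-/- cells and -0.69 in wild-type cells. Those with CHR letters had -0.30 in Inha-/- cells and -0.56 in wild-type cells, and those with neither had -0.25 in Inha-/- cells and -0.32 in wild-type cells. Genes with E2F letters thus had the larger median difference after hCG, as the replication genes did, and most of them are replication genes. Of the windows printed above, those of Mcm3, Pola1 and Mcm6 belong to the E2F group and those of Bub1, Mki67 and Ccnb2 to the CHR group.

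Other genes of the same pathways, from longer lists, are given for comparison. Of 36 other replication genes tested, 26 were higher and 0 lower in Inha-/- after hCG, led by Dut (2.12), which clears dUTP, the fork protection gene Timeless (2.08) and Dscc1 (1.95), a subunit of an alternative clamp loader. Of 50 other mitosis genes 22 were higher and 0 lower, led by the cyclin gene Ccnf (1.97), the spindle motor gene Kifc1 (1.93) and the kinetochore gene Nuf2 (1.43). Of all genes tested, 12.5% were called higher and 8.83% lower in this comparison. After hCG the larger share of calls among replication genes than among mitosis genes was seen in the longer lists too, with no test of the difference. After PMSG 2 other replication genes were higher, Pole (0.94), a DNA polymerase, and the flap endonuclease gene Fen1 (0.80), and 0 lower. Of the other mitosis genes 6 were higher and 0 lower, led by the centromere gene Cenpk (1.77), the separase gene Espl1 (1.09) and Nuf2 (1.08). Of all genes tested, 2.98% were called higher and 3.21% lower after PMSG. The order of the kinds was thus the opposite there, with 2 of 36 replication and 6 of 50 mitosis genes called, again with no test.

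With hCG in wild type, 12 other replication genes were lower and 0 higher, led by Uhrf1 (-1.93), which maintains DNA methylation at the fork, Dut (-1.70) and the clamp loader gene Chtf18 (-1.30). Of the other mitosis genes 10 were lower and 0 higher, led by the condensin gene Smc4 (-1.41), the phosphatase gene Cdc25c (-1.23) and Anln (-1.05), which acts in cytokinesis. These are counts of 36 and 50 genes, where 12.2% of all genes tested were called lower and 9.87% higher. In Inha-/- cells limma called none of either list in the response to hCG, where 2.45% of all genes tested were called higher and 0.224% lower. At an unadjusted p under 0.05, 1 other replication and 7 other mitosis genes were lower and 0 higher.

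Among 20 transcription factors of the cell cycle, E2f1 was higher in Inha-/- cells both after hCG (1.81) and after PMSG (1.15). After hCG 5 were higher, also with Rbl1 (1.29), a relative of the retinoblastoma protein, and Mybl2 (1.14), an activator of mitosis genes, and 1 was lower, Lin37 (-0.64), a subunit of the complex that binds CHR letters. After PMSG 2 were higher, E2f1 and E2f8 (0.86), and 1 was lower, Myc (-1.88). With hCG in wild type Myc (-1.69) and E2f1 (-0.69) were lower and E2f5 (1.32) and E2f3 (0.94) higher. In Inha-/- cells limma called none of the factors in the response to hCG, with 0 at an unadjusted p under 0.05. Among all genes tested, the shares called in each comparison are those given above.

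Of 16 brakes of the cell cycle tested, 4 were higher and 4 lower in Inha-/- after hCG, against 12.5% and 8.83% of all genes tested. The lower ones were led by Cdkn1a (-1.88), which encodes p21, an inhibitor of cyclin-dependent kinases, and the growth arrest gene Gadd45g (-1.82), and the checkpoint kinase gene Chek1 was higher (1.58). After PMSG 2 were higher, Chek1 (1.23) and the inhibitory kinase gene Wee1 (0.80), and 0 lower, against 2.98% and 3.21% of all genes. With hCG in wild type 4 were higher and 2 lower, against 9.87% and 12.2% of all genes. Among them were Cdkn1a (3.31), the checkpoint kinase gene Chek2 (-1.59) and the kinase inhibitor gene Cdkn2d (1.43). In Inha-/- cells 2 were higher with hCG, Gadd45b (2.94) and Cdkn1a (2.68), and 0 lower, against 2.45% and 0.224% of all genes. Cdkn1a was thus called as higher with hCG in both genotypes, and lower in Inha-/- than in wild type after it.

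Markers of other cells moved with the genotype. Over all genes tested, 12.5% were called higher and 8.83% lower after hCG, and 2.98% higher and 3.21% lower after PMSG. Of 14 oocyte markers 10 were higher in Inha-/- after hCG and 7 after PMSG, led by the egg-coat gene Zp3 (6.61 and 3.88), and 0 were lower. Their median per array was 0.42, 3.01 and 2.66 in Inha-/- cells after hCG, against -0.59, -1.50 and -1.36 in wild-type cells after hCG. After PMSG it was 0.83, 2.20 and 0.67 in Inha-/- cells, against -0.58, -0.86 and -1.46 in wild-type cells. The groups did not overlap. In replicate order, the replication medians were 0.23, 0.31 and 0.50 in Inha-/- cells after hCG and 0.63, 0.38 and 0.27 after PMSG. In both Inha-/- groups the array with the lowest oocyte median also had the lowest replication median. The array with the highest oocyte median did not have the highest replication median in either group. Whether the oocyte and replication medians go together was not tested.

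Of 12 theca and stroma markers 7 were higher after hCG, with 0 lower, and 6 higher and 1 lower after PMSG. The higher ones after PMSG were led by Myh11 (2.87), Col1a2 (2.81) and Gli2 (2.73). The lower one was Cyp17a1 (-2.94), the largest absolute change of the list, so these markers did not move as 1 set. The median of the 12 per array ran between 0.57 and 2.43 in Inha-/- after hCG, against -1.03 and -0.45 in wild type after hCG. After PMSG it ran between 0.64 and 1.73 in Inha-/-, against -0.79 and -0.50 in wild type. Of 5 surface epithelium markers 4 were lower in Inha-/- in each comparison, with medians between -0.63 and -0.10 against 0.92 and 1.43 after hCG, and between -1.38 and -0.79 against 0.10 and 0.73 after PMSG. Of 6 leukocyte and 5 endothelium markers limma called none between the genotypes, with 2 endothelium markers higher after PMSG and 1 leukocyte marker higher after hCG at an unadjusted p under 0.05, and the 1 red blood cell marker tested was not called. Of 7 granulosa markers 3 were higher in Inha-/- after hCG, namely Inhba, Hsd17b1 and Fst, and none was called between genotypes after PMSG. With hCG in wild type 6 were lower, where 12.2% of all genes tested were called lower. Which markers were near 0 cannot be read from centred values. The part of any of these cells in the results for replication and mitosis genes was not tested.

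Probe sets other than those chosen were available for 32 of the genes, 52 in all. After hCG 47 of the 52 had the sign of the chosen probe set in the difference between genotypes, with a median of 0.58, and after PMSG 48 had it, with a median of 0.45. In the response to hCG 45 had the same sign in Inha-/- cells (median -0.15) and 38 in wild-type cells (median -0.27). The choice by largest deviation favours probe sets that respond, and the other ones were smaller on the whole. In total 20 of the 43 genes were called in none of the comparisons, among them Pcna, Top2a and Cdk1.

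The serial numbers of the arrays fall into 7 early and 5 late ones, and the late ones comprise Inha-/- PMSG replicate 3 and, in each hCG group, replicates 2 and 3. With early or late number as a covariate limma called 23 of the 43 genes between genotypes after hCG, 6 between genotypes after PMSG, and 8 with hCG in wild type. Among the late arrays alone the median difference between genotypes after hCG was 1.23 for replication and 0.62 for mitosis genes, with 7 genes called. Among the early arrays alone, with 1 array of each genotype after hCG, it was 1.19 and 0.69, values that have no replicate check of their own.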

How the data were processed

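RNA of 12 samples was measured on 12 single-colour Affymetrix arrays. The deposited values are log2 expression after GCRMA, per the submitters' processing notes, with no version given in those sources. They were found centred on the median of each of 45101 probe sets (largest absolute median 5e-07). The arrays had medians of -0.0197 to 0.093 and were not scaled further. Base 2 fits the widest span of a probe set, 13.3 units. No columns of other samples were present.

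Genes were named from probe sets annotated to 1 gene, taking the probe set of largest SD, and kept if that SD was in the upper 60% of non-control probe sets (at least 0.151). A group-means model over all 12 arrays was fitted with limma 3.58.1 in R 4.3.3, with p-values adjusted by the Benjamini-Hochberg method over 12500 genes, and genes with an adjusted p under 0.05 are referred to as called. P-values set a difference between groups against the spread between these samples within their groups. Pairing of same-numbered replicates was judged by the correlation of their deviations from the group means, and was taken only if all 3 were over 0.1. Between genotypes after PMSG these were 0.182, 0.299 and 0.0703, so the rule was not met and the main fit has no block. The first 2 of these pairs share an array name number and the third does not. The rule could therefore not find a pairing of the first 2 alone.

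The genes, lists, comparisons and alternatives were chosen with earlier results of these data known. Values on every array are given, for each kind of gene, for the 4 called genes of largest change between genotypes after hCG. They are also given for the 2 called genes of largest change between genotypes after PMSG and in the wild-type response to hCG. The 2 genes of smallest change between genotypes after hCG are shown too. None was called in the Inha-/- response, so none was chosen from it. Orc1, Kif11 and Cenpe were added after their values were seen. The 3 called genes of largest change in each comparison are named for the 4 other pathway lists. Marker lists are given by counts and medians, and the markers named were picked after their values were seen. On simulated data of 12500 genes for the comparison of genotypes after hCG, limma recovered 26 of 100 genes changed by a log2 value of 1 and 77 of 100 changed by 2, with 8 false calls. Promoter windows are RefSeq's, of the build GRCm38.p6, and were matched by symbol.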

Additional observations from a re-analysis of the deposited data

How the results depend on the processing

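The median change kept its sign under every alternative for genotype after hCG, genotype after PMSG and the hCG response in wild type. It changed sign for replication genes in the Inha-/- response among late arrays alone (0.0713), where the PMSG side is 1 array, replicate 3, which departs from its group, and for mitosis genes in the interaction without Inha-/- PMSG replicate 3 (-0.0250), within a range of -0.0250 to 0.265 over the arrays left out. Calls between genotypes after PMSG (7) were 3 with no filter on SD, 14 with the mean of all probe sets of a gene, 0 on early arrays alone, 0 in a fit of only the groups of the contrast, 4 with array weights, and 0 to 8 when each array was left out. After hCG (22) they were 0 on early arrays alone, 7 on late arrays alone and 18 to 26 with an array left out. In the wild-type response (11) they were 4 after quantile normalization, 2 on early arrays alone, 7 with array name number as a random block, 7 in a fit of only the groups of the contrast, 21 with array weights, and 3 to 12 with an array left out. In the Inha-/- response (0) they were 1 on late arrays alone and 0 to 1 with an array left out, and in the interaction (0) 2 with array weights and 0 to 1. Over all pairs of a called gene and an alternative, the call held in 475 of 528 after hCG, 80 of 161 after PMSG and 189 of 253 in the wild-type response, and 0 reversed. With the replicate number as a block, calls between genotypes after PMSG were 2, and 22, 10, 0 and 0 in the other comparisons. By their labels the samples share only a number, although the first 2 pairs after PMSG also share an array name number and each of the 3 pairs correlated best with its own number between genotypes after PMSG and in the wild-type response. On early arrays each hCG group has 1 array, so the spread in those fits comes from the PMSG groups alone and their counts do not bear on the genotypes after hCG, and the 1 call on late arrays in the Inha-/- response (Orc1) rests on the same single PMSG array. Fits of fewer arrays have less power by construction, and the other causes were not tested. The genotype difference after PMSG, the wild-type response and the interaction could not be fitted on late arrays alone, where wild type after PMSG has no array. Arrays were not checked for signal over background, which centred values do not hold.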
